A study of Homo sapiens with 12 samples.

Results

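HL-60 cells given ATRA together with palbociclib were compared with untreated HL-60 cells after 3 h. The comparison covered the 7820 genes, of 58233 listed, that stood at 5 RPKM (reads per kilobase of transcript, scaled to library size) or more in at least 3 of the 12 libraries of the study, and used 6 of these libraries, 3 per group. Of the genes at this limit, 704 had exactly 5 RPKM as the third highest of their 12 values and were tested, and 839 had 4 and were not. HL-60 is an established human acute myeloid leukaemia line, labelled wild type, and was kept in RPMI with 10% FCS. The treated group received 100 nM ATRA and 500 nM palbociclib and the other group neither, with no vehicle named in the labels. Libraries were made from polyadenylated RNA. The labels do not say whether the 3 libraries of a group came from separate cultures, so the p-values measure the spread between these libraries, which may be technical. All results are from this single line.

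ATRA (all-trans retinoic acid) is the ligand of the retinoic acid receptors, which bind DNA as heterodimers with retinoid X receptors and switch from repressing to activating their target genes when the ligand binds. In promyelocyte-like leukaemia cells this starts a programme of granulocytic maturation. Palbociclib inhibits the kinases CDK4 and CDK6, which together with D cyclins phosphorylate the retinoblastoma protein, and unphosphorylated RB holds E2F factors back from the genes that open S phase.

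The deposited values of a library summed to between 363245 and 363796 RPKM in the untreated group and to between 370034 and 387005 with the combination. These sums are not read totals, and the table does not give the depth of a single library, for which the study states an average only. The HL-60 lineage markers were present, with MPO, the main enzyme of primary granules, at 1254, 1372 and 1411 RPKM in untreated libraries and 1124, 1099 and 1269 with the combination, while ELANE (neutrophil elastase) did not exceed 1 in any library. Of the marker lists for other cells, 10 of 11 lymphoid, 11 of 12 erythroid and megakaryocytic, 13 of 14 mature neutrophil, 10 of 12 monocyte and macrophage and 11 of 12 non-haematopoietic genes stayed at 1 or below in all 12 libraries. Their summed levels were 5 to 8 and 8 to 11 RPKM (lymphoid, untreated and combination), 3 to 4 and 6 (erythroid), 3 to 4 and 3 to 5 (neutrophil), 114 to 163 and 136 to 193 (monocyte, nearly all from S100A8 and S100A9) and 2 and 4 to 6 (non-haematopoietic, all from PECAM1, which myeloid cells also express). Their part in the results was not tested. In bulk RNA, a change in the number of cells of a kind and a change in the RNA of each cell cannot be told apart.

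With the combination, 294 genes were higher than in untreated cells (3.76% of those tested) and 335 were lower (4.28%), at an adjusted p under 0.001. These 2 shares stand beside the counts of every gene list below. A count near them is not read as a result about the list. Here and below, p-values are from limma on log2(RPKM + 0.1) with Benjamini-Hochberg adjustment over all genes tested, and fold changes refer to that scale. For genes of low level they depend on the pseudocount and on the rounding. They can come out too small, or too large where a group is listed at 0. For FGR, listed at 0 in untreated cells, the log2 fold change lay between 5.35 and 8.92 over the alternative settings. The increases were the larger changes. Their median log2 fold change was 0.95 (quartiles 0.68 and 1.73), and 54 of the 294 exceeded 2, whereas the decreases had a median of -0.70 (quartiles -0.88 and -0.54) and 3 of the 335 went below -2. The genes that rose had a median level of 8 RPKM in untreated cells and 18.8 RPKM with the combination, and the genes that fell went from 16.7 to 10 RPKM. The median of all 7820 genes was -0.01. In all 629 called genes the 3 libraries of one group lay apart from the 3 of the other, as they did in 36.0% of all genes tested. Protein-coding genes made up 283 of the increases and 329 of the decreases, in the annotation of GENCODE v44.

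In the called genes, the 3 combination libraries differed from untreated cells to unequal extents. Replicate 1 alone had the lowest of the 3 values in 181 of the 294 genes that rose, against 29 for replicate 2 and 30 for replicate 3. Over all 7820 genes tested, it was alone the lowest in 2270, against 1633 and 1684. In the 335 genes that fell, it was alone the highest in 112, against 30 and 34. Its deviations from the group mean also went with those of ATRA replicate 1 (correlation 0.908) and palbociclib replicate 1 (0.702). Whether the unequal extent is a trait of whole libraries was not tested. The median log2 difference of combination replicate 1 from the untreated mean was 0.86 for the genes that rose, against 0.98 and 1.00 in the other replicates. For those that fell it was -0.64, against -0.70 and -0.72. Without combination replicate 1, 246 genes were called higher and 280 lower. Leaving out any of the other 5 libraries cost more calls: 192 and 162 were called without untreated replicate 1, 200 and 174 without replicate 2, 194 and 178 without replicate 3, and 175 and 169 without combination replicate 2 and 176 and 180 without replicate 3. The spread was estimated from all 12 libraries. With only the 6 libraries compared, 49 genes were called higher and 22 lower.

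**Figure D1:**
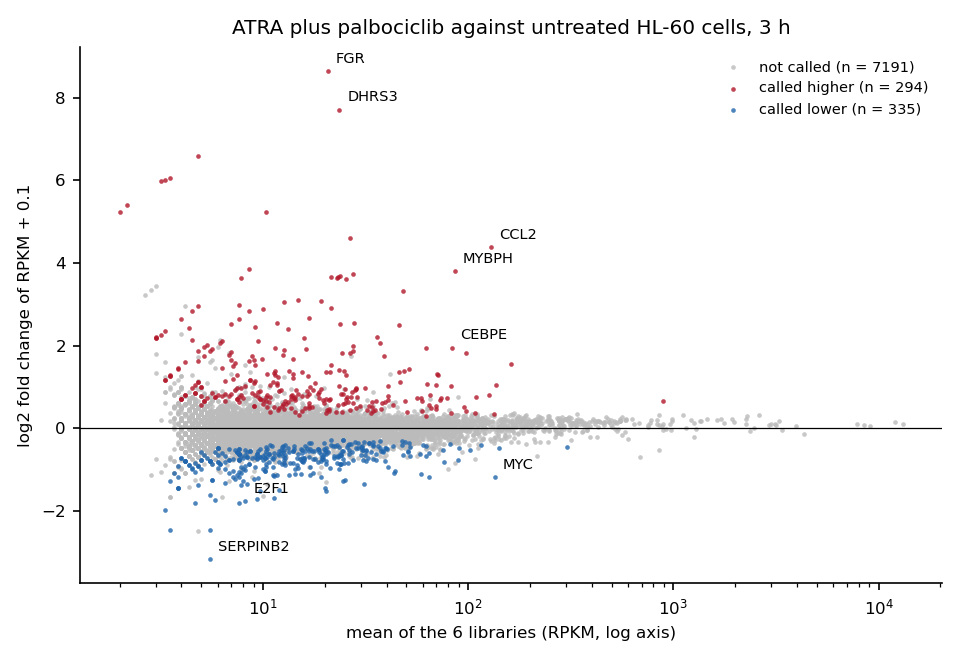
Log2 fold change (of RPKM + 0.1, combination minus untreated) of each of the 7820 genes against its mean level in the 6 libraries (RPKM, log axis). Red points are the 294 genes called higher, blue points the 335 called lower and grey points the rest. FGR and DHRS3 stand at the top, where the height depends on the pseudocount because untreated libraries are at 0 or 1 RPKM, and SERPINB2 lies lowest at -3.17.

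Of the 12 largest increases, 5 were in genes listed at 0 RPKM in every untreated library, and their place in this ranking depends on the pseudocount. FGR, a Src-family tyrosine kinase of myeloid cells encoded at chr1:27612064-27635185 (GENCODE v44, GRCh38), was listed at 0 in all 3 untreated libraries and at 27, 44 and 53 RPKM with the combination (adjusted p = 1.76e-05). HIC1, a transcriptional repressor, went from 0 in each library to 8, 12 and 9 RPKM (adjusted p = 1.3e-07), and LILRA5, an activating receptor of the leukocyte immunoglobulin-like family, from 0 to 4, 8 and 9 RPKM (adjusted p = 3.82e-06). No fold is given for these, since a listed 0 is any value below the rounding step. The limma p-values of genes listed at 0 rest on the same rounded zeros and on the pseudocount. For HIC1, the adjusted p lay between 1.86e-09 and 0.000173 over the alternative settings. ID1, an inhibitor of basic helix-loop-helix factors, went from 0 RPKM in untreated cells to 5, 7 and 7 RPKM (adjusted p = 0.000179). The long non-coding gene AC011899.2 went from 0 to 4, 8 and 8 RPKM (adjusted p = 2.14e-06). It lies on the opposite strand within PTPRN2, which also rose, from 3 RPKM in each untreated library to 6 in each combination library (adjusted p = 3.53e-06), and the sources do not say whether the library kit kept the strand, so reads of the pair may be shared. DHRS3, a retinal reductase that lowers the supply of retinoic acid, lay at the same rounding step, with 0, 1 and 0 RPKM in untreated cells and 41, 50 and 49 RPKM with the combination (adjusted p = 0.000234).

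Except for LRG1, the other large increases started from 1 RPKM or more in every untreated library. CCL2, a monocyte-attracting chemokine encoded at chr17:34255274-34257208, stood at 11, 11 and 13 RPKM in untreated cells and at 226, 265 and 247 RPKM with the combination (log2 fold change 4.39, standard error 0.09, adjusted p = 5.47e-10). CD1D, which presents lipid antigens, rose from 2 RPKM in each library to 44, 54 and 56 RPKM (log2 fold change 4.61, standard error 0.16, adjusted p = 2.89e-08). ASB2, a ubiquitin ligase subunit known as a retinoic acid target in leukaemia cells, rose from 1 in each library to 12, 18 and 18 RPKM (3.85, adjusted p = 1.3e-07). MYBPH, a myosin-binding protein, rose from 8, 13 and 13 to 112, 176 and 194 RPKM (3.81, adjusted p = 4.03e-06). NCF1, the p47phox subunit of the phagocyte NADPH oxidase, was at 4, 4 and 3 RPKM and then at 35, 57 and 62 RPKM (3.74, adjusted p = 3.13e-06), with the reservation that its near-identical copies NCF1B and NCF1C can share reads with it. LRG1, a secreted leucine-rich glycoprotein of granulocytes, had 0, 1 and 1 RPKM and then 11, 29 and 20 RPKM (adjusted p = 0.000624). In these genes too, combination replicate 1 was the lowest library. The calls of DHRS3, LRG1 and ID1 were each lost when single libraries were left out, with adjusted p-values up to 0.0022, 0.0042 and 0.00145. DHRS3 kept its call only without untreated replicate 2, LRG1 only without untreated replicate 1 and ID1 only without combination replicate 1.

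Among the 12 largest decreases, SERPINB2, an inhibitor of urokinase, fell furthest, from 8, 9 and 13 RPKM to 1 in each combination library (log2 fold change -3.17, standard error 0.24, adjusted p = 6.7e-06). FAM46C, a poly(A) polymerase, fell from 9, 9 and 10 to 2, 1 and 2 RPKM (-2.48, adjusted p = 0.000103), and PTGER4, the prostaglandin E2 receptor EP4, from 6 to 1 RPKM in each library (-2.47, adjusted p = 1.76e-05). TAGAP, a GTPase-activating protein of leukocytes, went from 10, 13 and 13 to 3, 3 and 4 RPKM (-1.82, adjusted p = 1.85e-05), and LGR4, a receptor for R-spondins, from 10, 8 and 9 to 3, 2 and 3 RPKM (-1.74, adjusted p = 2.36e-05). MAP3K21, a mixed-lineage kinase, fell from 8, 7 and 7 to 2 RPKM in each library (-1.82, adjusted p = 1e-06). Known targets of E2F were in this group. E2F1 itself (chr20:33675477-33686385) fell from 14, 12 and 12 to 4, 4 and 3 RPKM (-1.77, standard error 0.13, adjusted p = 5.45e-06), CCNE1 (cyclin E1, the activator of CDK2, chr19:29811991-29824312) from 15, 13 and 15 to 5, 4 and 4 RPKM (-1.71, standard error 0.10, adjusted p = 1e-06), and MSH6 (a DNA mismatch recognition protein) from 18, 16 and 18 to 6, 5 and 5 RPKM (-1.69, standard error 0.10, adjusted p = 1.69e-06). The list closed with FAM57A (TLCD3A) at 5, 5 and 6 and then 2, 1 and 1 RPKM (-1.99, adjusted p = 0.000346), FOSL2, an AP-1 subunit, at 7, 10 and 8 and then 2, 3 and 3 RPKM (-1.62, adjusted p = 0.000395), and CA2 (carbonic anhydrase 2) at 29, 28 and 32 and then 15, 9 and 8 RPKM (-1.52, adjusted p = 0.000661). FOSL2 lost its call whichever of the 6 libraries was left out (adjusted p up to 0.0029). FAM57A and CA2 kept it only without combination replicate 1, with adjusted p-values up to 0.00252 and 0.0044 otherwise.

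**Figure D2:**
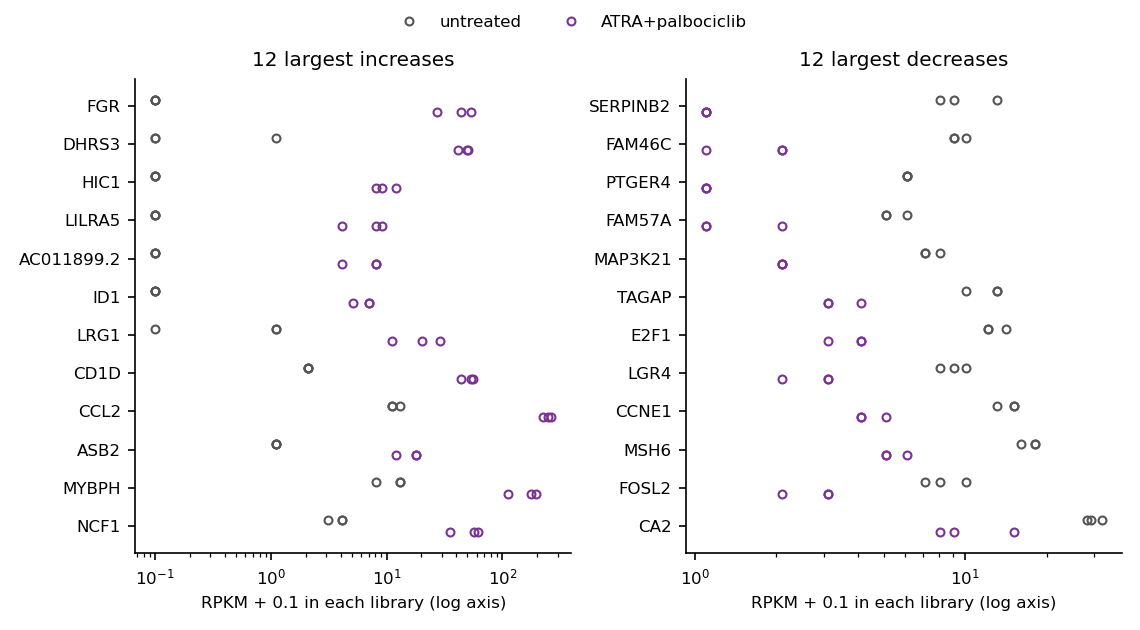
RPKM + 0.1 in each of the 3 untreated (grey) and 3 combination (purple) libraries, on log axes, for the 12 largest increases (left) and the 12 largest decreases (right). The 24 genes were chosen among those whose 2 groups do not overlap, so the gap is not a result. Values of 0 RPKM stand at 0.1.

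Of 28 listed genes known to respond to retinoic acid, 19 were tested, and another 7 were listed at 0 in all 12 libraries. Of the 19 tested, 14 were higher and 0 lower, beside 3.76% and 4.28% of all genes tested. Their median log2 fold change was 1.95, beside -0.01 for all genes tested. DHRS3, HIC1, ID1, ICAM1, ASB2, CD38, IRF1 and TRIB1 stayed under 5 RPKM in all untreated and palbociclib libraries. They entered the test only through libraries with ATRA, which raises the count and the median by construction. CEBPE, a transcription factor of granulocyte maturation, was at 34, 32 and 37 RPKM in untreated cells and at 131, 131 and 135 RPKM with the combination (log2 fold change 1.95, standard error 0.08, adjusted p = 1.26e-07). CEBPB, a related factor, rose from 6, 7 and 8 to 36, 46 and 40 RPKM (2.52, adjusted p = 2.82e-07). The surface NADase CD38 rose from 3, 2 and 2 to 15, 17 and 21 RPKM (2.88, adjusted p = 6.81e-06) and the adhesion molecule ICAM1 from 1 in each library to 8, 20 and 16 RPKM (3.65, adjusted p = 2.47e-05). PRAM1, an adaptor protein, IRF1, an interferon regulatory factor, and BTG2, an antiproliferative factor, had log2 fold changes of 1.68, 2.13 and 1.95. SLPI, an inhibitor of neutrophil proteases, stood at 257, 290 and 298 RPKM and then at 316, 295 and 274 RPKM (0.07, adjusted p = 0.593), and overlapped between the groups. TNFAIP2 (0.90, adjusted p = 0.0157) and ID2 also did not pass. Of the 14 calls, 10 stood whichever library was left out, and those of DHRS3, ID1, RARA and TRIB1 did not.

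The receptors themselves moved less. RARA was at 10, 11 and 10 RPKM and then at 14, 19 and 18 RPKM (log2 fold change 0.70, standard error 0.11, adjusted p = 0.000837), and RXRB at 12, 13 and 12 and then at 16, 16 and 17 RPKM (0.40, adjusted p = 0.000943). RARA kept this call only without combination replicate 1, and RXRB lost it whichever library was left out (adjusted p up to 0.00557 and 0.00529). RXRA was at 12, 14 and 14 RPKM and then at 8, 9 and 9 RPKM, with no overlap, but did not pass (-0.61, adjusted p = 0.00294). RARB and RXRG were listed at 0 in all 12 libraries and RARG did not exceed 1. The coregulators NRIP1 (1.52, adjusted p = 0.00447) and NCOA3 (1.30, adjusted p = 0.00727) did not pass either, each with combination replicate 1 far below replicates 2 and 3, at 7 against 15 and 15 RPKM and 39 against 73 and 67 RPKM. Of the retinoid binding and metabolism genes, DHRS3 was the 1 of 6 tested that passed, and CYP26A1, the main retinoic acid hydroxylase, was listed at 0 in all 12 libraries.

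Transcription factors of myeloid cells moved both ways, with 9 of 24 tested higher and 2 lower. GFI1, a repressor required for granulocytes, rose from 53, 56 and 57 to 90, 93 and 93 RPKM (log2 fold change 0.73, standard error 0.05, adjusted p = 2.9e-06), and ETV6 from 6 in each library to 10 in each (0.73, adjusted p = 9.15e-06). SPI1 (PU.1), the master regulator of the lineage, was at 80, 86 and 85 and then at 112, 111 and 110 RPKM (0.41, adjusted p = 0.000185), and CEBPA at 33, 35 and 36 and then at 54, 54 and 46 RPKM (0.56, adjusted p = 0.00052). MYB, which keeps progenitors proliferating, fell from 58, 54 and 64 to 27, 25 and 35 RPKM (-1.03, adjusted p = 0.000302). GATA2, a factor of early progenitors, stood at 7, 10 and 12 and then at 2, 3 and 4 RPKM and did not pass (-1.67, standard error 0.33, adjusted p = 0.003), and IRF8 (-0.39, adjusted p = 0.00801) did not pass either. MYB and CEBPA kept their calls only without combination replicate 3 (adjusted p up to 0.0023 and 0.0038 otherwise). SPI1 lost its call without untreated replicate 1 or combination replicates 2 or 3 (up to 0.00121). Of the 11 calls, 6 were kept without untreated replicate 1 and 7 without untreated replicate 3 or combination replicate 2, against 8 or 9 without the other libraries.

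Granule protein and NADPH oxidase genes did not move as a set. Of 10 tested granule proteins, 6 had negative fold changes and 0 were called lower, while 2 were called higher. These were SERPINB1, an elastase inhibitor, from 15, 12 and 14 to 69, 77 and 88 RPKM (log2 fold change 2.50, adjusted p = 7.44e-07), and SRGN, the granule proteoglycan serglycin, from 666, 651 and 740 to 1032, 1153 and 1077 RPKM (0.67, adjusted p = 6.67e-05). The list had a median of -0.16, and LYZ (lysozyme) was at 902, 982 and 1149 and then at 666, 698 and 730 RPKM without passing (-0.53, adjusted p = 0.00581). The secondary granule genes LTF, CAMP, LCN2, MMP8 and MMP9 were listed at 0 in all 12 libraries. Of 7 tested NADPH oxidase subunits, NCF1 and CYBB (gp91phox) rose. CYBB went from 25, 28 and 27 to 54, 78 and 79 RPKM (1.38, adjusted p = 0.000343), a call kept only without combination replicate 1 (adjusted p up to 0.00309). CYBA, NCF4 and RAC2 had positive fold changes of 0.40, 0.26 and 0.33 and did not pass.

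In the list of Src-family kinases and adaptors, which also holds other signalling proteins, 11 of 28 tested genes were higher and 1 was lower. The median was 0.39. Besides FGR, the adaptor SLA rose from 4, 6 and 5 to 33, 42 and 38 RPKM (log2 fold change 2.90, adjusted p = 1.28e-06), the adaptor SH2B3 from 14, 14 and 13 to 33, 40 and 35 RPKM (1.39, adjusted p = 2.22e-06) and the PI3-kinase subunit PIK3R5 from 16, 15 and 15 to 31, 32 and 31 RPKM (1.03, adjusted p = 4.41e-07). The kinase LYN rose from 19, 20 and 19 to 30, 33 and 32 RPKM (0.71, adjusted p = 3.05e-05), whereas SYK, BTK and CSK did not pass, at -0.05, 0.03 and 0.09. The signalling proteins PTPN6, LCP2, DOK2 and VAV1 rose by 0.81, 1.35, 0.83 and 0.57. The gene that was lower is TAGAP. Of the 12 calls, 11 stood whichever library was left out, and that of TRIB1, which is also in the retinoid response list, did not.

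Among 27 tested integrins, adhesion molecules and surface receptors, 9 were higher and 2 lower. Of these 11 calls, 10 were kept without combination replicate 1 and 6 or 7 without any other library, the lost ones being among PECAM1, CSF2RA, LILRB4, CSF3R and CCR2. ITGA5, the fibronectin receptor subunit, rose from 10, 12 and 11 to 40, 46 and 46 RPKM (log2 fold change 1.99, adjusted p = 2.78e-07), and the chemokine receptor CCR1 from 4 in each library to 15, 27 and 25 RPKM (2.41, adjusted p = 4.79e-05). CCR2, the receptor for CCL2, was at 15, 19 and 19 and then at 46, 68 and 67 RPKM (1.75, adjusted p = 0.000113), and CSF3R, the G-CSF receptor, at 4 in each library and then at 9, 13 and 17 RPKM (1.63, adjusted p = 0.000338). TLR2 fell from 10, 11 and 11 to 5, 5 and 6 RPKM (-0.99, adjusted p = 7.01e-05). ITGAM (CD11b) and ITGAX (CD11c) did not exceed 2 RPKM in any library and were not tested. Both were listed at 0 in each untreated library. With the combination, ITGAM was at 1, 1 and 2 RPKM and ITGAX at 1, 2 and 2 RPKM, close to the rounding step. CD14 was listed at 0, and CD33 was at 7, 7 and 8 and then at 7 in each library. CCR2 lost its call without untreated replicate 1 or combination replicate 3 (adjusted p up to 0.00111) and CSF3R kept it only without combination replicate 1 (up to 0.00265).

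In the inflammatory and NF-kB list, 5 of 16 tested genes were higher and 2 lower. Besides CCL2 and ICAM1, the chemokine CXCL8 (interleukin 8) rose from 12, 12 and 14 to 54, 66 and 58 RPKM (log2 fold change 2.22, adjusted p = 4.41e-07). BCL3, a nuclear partner of NF-kB, was at 1 in each library and then at 5, 7 and 4 RPKM (2.27, adjusted p = 0.000228), a call kept only without combination replicate 3 (adjusted p up to 0.00174). TNF was at 52, 53 and 62 and then at 87, 83 and 99 RPKM (0.69, adjusted p = 0.000989), a call lost whichever library was left out (adjusted p up to 0.00694). TNFAIP8, which inhibits apoptosis, fell from 8 in each library to 4, 3 and 3 RPKM (-1.25, adjusted p = 1.11e-05) and the adaptor TRAF3 from 7, 6 and 7 to 4 in each (-0.72, adjusted p = 5.89e-05). NFKB1, RELA, NFKBIA and TNFAIP3 did not pass. Of 8 tested interferon-stimulated genes, IRF1 alone rose.

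Of 14 tested BCL2-family genes, 4 rose and 1 fell, among them members of opposite function. The survival gene BCL2A1 rose from 4 in each library to 13, 14 and 14 RPKM (log2 fold change 1.75, adjusted p = 2.78e-07), and so did the pro-apoptotic BIK, from 3, 3 and 4 to 18, 19 and 23 RPKM (2.55, adjusted p = 3.47e-06), and PMAIP1 (NOXA), from 18, 21 and 18 to 35, 36 and 34 RPKM (0.88, adjusted p = 1.31e-05). BCL2 itself fell from 13 to 8 RPKM in each library (-0.69, adjusted p = 3.13e-05). MCL1, at 120, 119 and 112 and then 148, 147 and 154 RPKM (0.36, adjusted p = 0.000336), lost its call whichever library was left out (adjusted p up to 0.00199).

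Of 16 tested antiproliferative genes, 7 were higher and 1 was lower, with a median of 0.59. Of these 8 calls, 6 were kept without combination replicate 1 and 4 or 5 without any other library, and BTG1, RGS2, ZFP36, TXNIP and BTG3 were the ones that lost theirs. BTG2 rose from 5, 4 and 5 to 16, 20 and 19 RPKM (log2 fold change 1.95, adjusted p = 4.25e-06) and PDCD4, a translation inhibitor, from 11, 11 and 10 to 18, 17 and 18 RPKM (0.72, adjusted p = 1.28e-05), while BTG3, at 8 in each library and then at 5, 4 and 4 RPKM, was lower (-0.88, adjusted p = 0.000344), a call kept only without combination replicate 1 (adjusted p up to 0.00233). MXD4, a MYC antagonist, rose from 2 to 5 RPKM in each library (1.28, adjusted p = 1.81e-05). The cyclin-dependent kinase inhibitor CDKN1B was at 12, 12 and 10 and then at 14, 14 and 12 RPKM (0.23, adjusted p = 0.116), and CDKN1A stayed at or under 5 RPKM and was not tested.

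MYC was at 168, 184 and 205 RPKM in untreated cells and at 72, 70 and 107 RPKM with the combination (log2 fold change -1.18, standard error 0.18, adjusted p = 0.000612). Its call was kept only without combination replicate 3, the library with the highest of the 3 values, and was lost without any other (adjusted p up to 0.00402). Ribosome biogenesis genes, many of them MYC targets, had a median of -0.36, with 47 of 49 below 0, 6 lower and 0 higher. Of the 6 calls, 3 were kept without untreated replicates 1 or 3 or combination replicate 2, and TCOF1, NOC3L and POLR1B were the ones that lost theirs. NOLC1, a nucleolar chaperone, fell from 135, 131 and 131 to 103, 95 and 99 RPKM (-0.42, adjusted p = 9.84e-05), RRP1B from 46, 42 and 41 to 28, 25 and 24 RPKM (-0.74, adjusted p = 3.63e-05) and WDR43 from 61, 55 and 60 to 39, 36 and 37 RPKM (-0.65, adjusted p = 3.72e-05). The cytosolic ribosomal proteins lay on the other side, with 78 of 81 above 0 and a median of 0.17, and none of them passed (0 higher, 0 lower). Of 18 tested glycolysis genes, 3 fell and 0 rose. SLC2A1, the glucose transporter GLUT1, fell from 9, 9 and 10 to 4, 4 and 5 RPKM (-1.10, adjusted p = 6.69e-05) and the phosphofructokinase PFKP from 18 in each library to 13, 13 and 12 RPKM (-0.51, adjusted p = 8.39e-05). HK2 (hexokinase 2) was at 36, 33 and 37 and then at 16, 12 and 17 RPKM (-1.25, adjusted p = 0.000136) and lost its call without untreated replicates 1 or 3 (up to 0.00134). The other 15, GAPDH and LDHA included, did not pass.

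In the amino acid stress list, 5 of 29 tested genes rose and 2 fell, with a median of 0.01. DDIT4, an inhibitor of mTORC1, rose from 4, 5 and 3 to 35, 39 and 29 RPKM (log2 fold change 3.09, adjusted p = 1.82e-06) and XBP1, a factor of the unfolded protein response, from 75, 85 and 83 to 141, 140 and 129 RPKM (0.76, adjusted p = 1.31e-05). TRIB3, a target of ATF4, fell from 20, 20 and 19 to 12, 11 and 13 RPKM (-0.71, adjusted p = 6.93e-05). ATF4 and ASNS did not pass (0.07 and 0.01), nor did DDIT3 (CHOP), at 10, 11 and 12 and then 21, 17 and 16 RPKM (0.70, adjusted p = 0.00241), which passed with median-of-ratios scaling (adjusted p = 0.000876). Of 16 tested MAPK feedback and immediate early genes, 1 was higher and 4 were lower. IER5, FOSL1, FOSL2 and MYC each lost their call when single libraries were left out, and between 1 and 3 of the 5 calls were kept without any given one of the 6 libraries. The MAPK phosphatase DUSP2 fell from 11 to 6 RPKM in each library (-0.86, adjusted p = 2.22e-06), and DUSP6, at 4, 7 and 5 and then 10, 12 and 11 RPKM, did not pass (1.06, adjusted p = 0.00182).

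The kinases that palbociclib inhibits did not pass, although CDK4 did with median-of-ratios scaling. CDK4 was at 55, 51 and 57 and then at 43, 42 and 39 RPKM (log2 fold change -0.39, adjusted p = 0.00147), CDK6 at 10, 8 and 6 and then at 6, 6 and 5 RPKM (-0.47, adjusted p = 0.0424) and RB1 at 21, 25 and 21 and then at 11, 16 and 14 RPKM (-0.72, adjusted p = 0.014). The D cyclins CCND2 and CCND3 overlapped between the groups, and CCND1 did not exceed 2 RPKM. Of 13 tested genes of the whole list of cyclins, CDKs and their inhibitors, 4 fell and 0 rose, and all 4 calls stood whichever library was left out. Besides CCNE1, these were CDC25A, the phosphatase that activates CDK2, from 36, 35 and 34 to 15, 15 and 13 RPKM (-1.29, standard error 0.06, adjusted p = 3.05e-07), SKP2, which marks CDKN1B for degradation, from 43, 46 and 46 to 25, 28 and 26 RPKM (-0.77, adjusted p = 1.28e-05), and CDK2 from 19, 20 and 18 to 12, 12 and 10 RPKM (-0.74, adjusted p = 0.000114). Of 14 tested genes of the RB, E2F and DREAM list, 13 had negative fold changes and 3 fell, E2F1 besides TFDP1 and E2F6, while E2F3, E2F4, RBL1 and RBL2 did not pass. TFDP1 (-0.47) kept its call only without combination replicate 1 and E2F6 (-0.48) lost it whichever library was left out (adjusted p up to 0.00427 and 0.00441).

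Of 24 tested genes of the MCM helicase and of origin licensing, 11 fell, 0 rose and 13 did not pass. All 24 fold changes were negative, with a median of -0.64. The replicative helicase consists of MCM2 to MCM7. MCM4 had the largest change of its subunits, from 79, 80 and 82 to 38, 41 and 33 RPKM (log2 fold change -1.11, standard error 0.08, adjusted p = 4.24e-06). MCM3 fell from 109, 115 and 114 to 68, 70 and 60 RPKM (-0.77, adjusted p = 2.05e-05) and MCM2 from 76, 79 and 78 to 54, 53 and 48 RPKM (-0.59, adjusted p = 4.6e-05). MCM6, at 98, 96 and 96 and then 63, 56 and 46 RPKM (-0.82, adjusted p = 0.000167), MCM7, at 121, 117 and 125 and then 89, 84 and 78 RPKM (-0.53, adjusted p = 0.000143), and MCM5, at 35, 37 and 37 and then 26, 26 and 24 RPKM (-0.52, adjusted p = 0.000579), were also lower, but with 1 library left out their adjusted p-values reached 0.00147, 0.00112 and 0.00366. MCM6 kept its call only without combination replicates 1 or 3, MCM7 lost it without untreated replicates 1 or 3, and MCM5 lost it whichever library was left out. MCM10, which starts the helicase, fell from 12 in each library to 4, 5 and 5 RPKM (-1.35, adjusted p = 7.79e-06), and MCMBP, an MCM chaperone, from 33, 30 and 31 to 17, 16 and 14 RPKM (-0.999, adjusted p = 9.16e-06). The licensing factors CDC6, CDT1 and ORC1 had fold changes of -0.53, -0.66 and -0.59 and did not pass (adjusted p = 0.0136, 0.00268 and 0.00121). Of the 11 calls, 6 stood whichever library was left out, with 6 kept without untreated replicates 1 or 3 and 7 without untreated replicate 2 or combination replicate 2.

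The promoters of E2F1, of 4 helicase subunits and of CCNE1 are shown because all are known E2F targets that fell, and because the window of CCNE1 holds none of the exact letters searched while the others do. The sequences are from RefSeq on GRCh38.p14, from 220 bases before to 30 bases after the listed start of the gene, 5′ to 3′ on the strand of the gene, which is the plus strand for MCM2 and CCNE1 and the minus strand for the others. Capitals mark the motifs TTTCCCGC, TTTCGCGC, TTTGCCGC and TTTGGCGC on either strand, and copies on both strands can overlap, as in the long runs of MCM2 and MCM6. The windows lie at chr20:33686356-33686605 (E2F1), chr3:127598191-127598440 (MCM2), chr6:52284713-52284962 (MCM3), chr2:135876414-135876663 (MCM6), chr7:100101368-100101617 (MCM7) and chr19:29811771-29812020 (CCNE1).
E2F1: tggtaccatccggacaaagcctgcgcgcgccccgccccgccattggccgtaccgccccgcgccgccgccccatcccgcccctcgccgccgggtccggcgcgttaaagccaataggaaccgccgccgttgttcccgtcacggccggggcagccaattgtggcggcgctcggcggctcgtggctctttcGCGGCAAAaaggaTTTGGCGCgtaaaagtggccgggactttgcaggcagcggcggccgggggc
MCM2: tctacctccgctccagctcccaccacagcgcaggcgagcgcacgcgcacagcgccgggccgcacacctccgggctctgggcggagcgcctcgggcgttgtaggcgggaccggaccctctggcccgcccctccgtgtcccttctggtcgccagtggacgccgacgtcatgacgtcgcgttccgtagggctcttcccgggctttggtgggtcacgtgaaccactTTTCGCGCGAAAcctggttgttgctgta
MCM3: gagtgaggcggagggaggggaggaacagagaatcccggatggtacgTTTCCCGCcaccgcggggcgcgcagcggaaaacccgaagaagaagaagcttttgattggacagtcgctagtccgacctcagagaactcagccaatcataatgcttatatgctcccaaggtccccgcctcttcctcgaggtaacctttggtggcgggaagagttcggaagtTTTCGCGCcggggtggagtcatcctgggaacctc
MCM6: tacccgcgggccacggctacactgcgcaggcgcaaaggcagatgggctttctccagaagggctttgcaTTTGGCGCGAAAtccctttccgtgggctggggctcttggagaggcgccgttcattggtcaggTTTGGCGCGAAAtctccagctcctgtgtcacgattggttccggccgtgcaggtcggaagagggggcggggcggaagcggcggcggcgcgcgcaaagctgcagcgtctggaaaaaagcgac
MCM7: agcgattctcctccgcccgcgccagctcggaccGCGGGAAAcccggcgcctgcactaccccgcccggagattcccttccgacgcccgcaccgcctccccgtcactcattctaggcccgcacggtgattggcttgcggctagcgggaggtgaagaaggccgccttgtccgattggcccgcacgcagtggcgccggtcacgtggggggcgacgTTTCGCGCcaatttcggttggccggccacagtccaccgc
CCNE1: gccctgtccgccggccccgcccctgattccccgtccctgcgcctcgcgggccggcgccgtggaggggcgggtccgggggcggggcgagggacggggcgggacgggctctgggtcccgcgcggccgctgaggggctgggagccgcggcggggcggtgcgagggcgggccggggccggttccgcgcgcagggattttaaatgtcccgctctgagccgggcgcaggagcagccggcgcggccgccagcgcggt

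At least 1 of these motifs was in the window from 250 bases before to 50 after the start of 908 of 27305 genes with a promoter in the table (3.33%). These 27305 include genes not expressed here, whereas the list shares below are over tested genes. No share was computed for all tested genes, so the lists are not compared with expressed genes in general. Of the 24 tested MCM and licensing genes, 21 had a promoter there and 11 of these held the motif (52.4%). The share was 31.4% of 35 promoters of the replication fork list, 30.8% of 26 of the repair list and 6.98% of 43 of the mitosis list. The E-box CACGTG, the core motif of MYC and MAX, was in 7.43% of all promoters and in 37.5% of 40 promoters of the ribosome biogenesis list, against 19% of the MCM list. These matches describe letters in a window and not binding. For the called genes as a whole the shares are not given, since 224 of 294 and 267 of 335 had a promoter in the table, which is under 80% of each.

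Of 41 tested genes of the replication fork and of nucleotide synthesis, 13 were lower and 1 was higher, with a median of -0.50. POLD3, a subunit of polymerase delta, fell from 14, 13 and 13 to 7, 8 and 7 RPKM (log2 fold change -0.86, adjusted p = 2.33e-05), FEN1, the flap nuclease, from 75, 79 and 76 to 52, 48 and 44 RPKM (-0.68, adjusted p = 7.47e-05), and the chromatin assembly subunits CHAF1A and CHAF1B with log2 fold changes of -0.55 and -1.25 (adjusted p = 7.52e-05 and 9.94e-05). These 4 calls stood whichever library was left out and the other 10 did not, with 11 of the 14 kept without combination replicate 1 and 4 or 5 without any other library. UNG, the uracil glycosylase, was at 46, 42 and 45 and then at 22, 17 and 14 RPKM (-1.35, adjusted p = 0.000259), and kept its call only without combination replicate 1 (adjusted p up to 0.00237). The exception in direction was SAMHD1, which degrades deoxynucleotides, at 54, 52 and 56 and then 87, 123 and 125 RPKM (1.03, adjusted p = 0.000872), a call with the same dependence (up to 0.00573). PCNA, at 261, 276 and 256 and then 199, 169 and 138 RPKM (-0.66, adjusted p = 0.00778), and RRM2, at 65, 75 and 67 and then 42, 48 and 39 RPKM (-0.68, adjusted p = 0.00103), did not overlap between the groups and did not pass.

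DNA repair and checkpoint genes were lower in 12 of 32 cases and higher in 0, with a median of -0.52. DTL, which targets proteins for destruction at PCNA, fell from 23, 23 and 24 to 9, 12 and 11 RPKM (log2 fold change -1.13, adjusted p = 0.000115) and UHRF1, which recruits DNMT1 to replicated DNA, from 48, 58 and 55 to 26, 29 and 28 RPKM (-0.95, adjusted p = 5.2e-05). WDR76 was at 14, 15 and 14 and then at 5, 6 and 4 RPKM (-1.52, adjusted p = 0.000131) and lost its call without untreated replicates 1 or 2 (adjusted p up to 0.00126). BRCA1, BRCA2, ATM and ATR did not pass. Of 50 tested mitosis genes, only WEE1, the kinase that restrains CDK1, passed, from 8 to 5 RPKM in each library (-0.67, adjusted p = 6.66e-05), and the median was -0.08. CDK1 was at 48, 52 and 52 and then at 42, 47 and 40 RPKM (-0.24, adjusted p = 0.0579), and CCNB1, PLK1, AURKA and TOP2A had fold changes of 0.001, -0.03, 0.09 and -0.03.

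Among polycomb and histone-modifying enzymes, 6 of 37 tested were lower and 1 was higher. Of these 7 calls, 6 were kept without combination replicate 1 and 3 or 4 without any other library, and those of KDM1A, KDM2B, SUV39H2 and JARID2 were the ones lost. EZH2, the H3K27 methyltransferase, fell from 24, 23 and 24 to 17, 16 and 16 RPKM (log2 fold change -0.53, standard error 0.05, adjusted p = 3.27e-05). CBX2, a reader of that mark, fell from 5, 6 and 6 to 2 RPKM in each library (-1.45, adjusted p = 3.24e-06) and CBX6 from 15, 14 and 12 to 7 in each (-0.95, adjusted p = 2.21e-05). The partners SUZ12 and EED did not pass (-0.41 and -0.39, adjusted p = 0.0252 and 0.00952), and the H3K27 demethylase KDM6B, at 3 in each library and then at 3, 5 and 5 RPKM, did not either (0.48, adjusted p = 0.0893). JARID2, at 7, 6 and 7 and then 10, 12 and 13 RPKM, was the 1 gene that was higher (0.79, adjusted p = 0.000396), a call kept only without combination replicate 1 (adjusted p up to 0.00265).

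**Figure D3:**
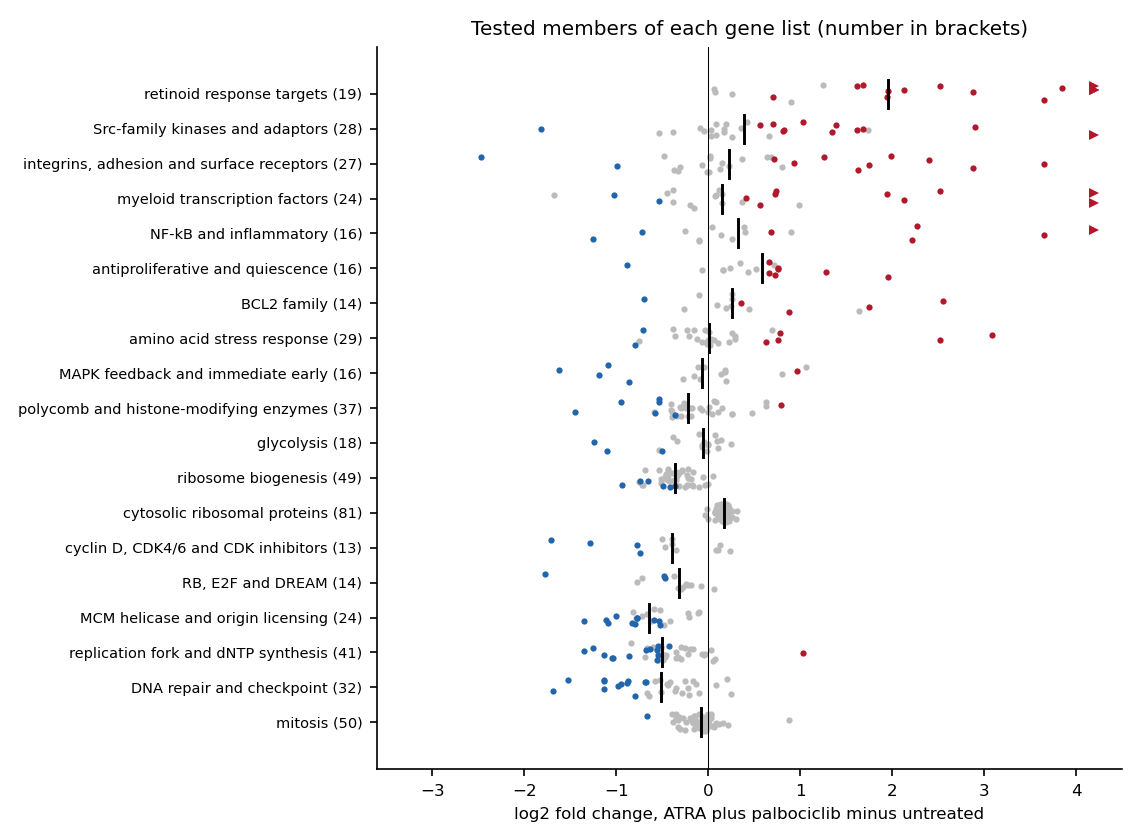
Log2 fold change (combination minus untreated) of every tested member of 19 gene lists, with the number tested in brackets. Red and blue points are genes called higher and lower, grey points are not called, black bars are medians and triangles at the right edge stand for larger values. Retinoid response genes lie furthest to the right (median 1.95) and MCM and licensing genes furthest to the left (median -0.64), while the mitosis genes centre on -0.08. Some retinoid response genes reached the expression limit only in libraries with ATRA, which raises that median by construction.

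Several lists held no called gene. None of 14 tested housekeeping genes, 13 mitochondrially encoded transcripts, 81 cytosolic ribosomal proteins or 4 clustered histone genes passed, with medians of -0.001, 0.07, 0.17 and 0.12. The 4 are those of 71 clustered histone genes, whose transcripts mostly carry no poly(A) tail, that reached the expression limit. Of 29 tested genes of sterol and fatty acid synthesis, ACSL1 alone passed, from 13, 12 and 13 to 29, 37 and 36 RPKM (log2 fold change 1.41, adjusted p = 2.55e-05). Over all genes tested, 3.76% were higher and 4.28% lower, so no result is read from the counts of these lists.

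The same libraries were then set against those of each agent alone, in the same fit. Against palbociclib alone, 165 genes were higher in the combination (2.11%) and 78 lower (0.997%), or 280 and 201 when replicate numbers entered as a block. Each library of the groups compared moved these counts when left out: 105 and 53 were called without palbociclib replicate 1, 93 and 29 without replicate 2, 102 and 30 without replicate 3, 141 and 58 without combination replicate 1, 87 and 29 without replicate 2, and 90 and 37 without replicate 3. Against ATRA alone, limma called 0 genes higher (0%) and 0 lower (0%), and 0 and 0 with the block. At an unadjusted limma p under 0.05, 44 of the 7820 genes were higher and 243 lower. Without any difference, a share of about 0.05 of all genes would pass that limit, so no difference is read from these 2 counts. A p that misses the threshold does not show that the levels were alike. The comparisons share their combination libraries, and those of each agent with untreated cells share the untreated ones, so their values are given side by side only.

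Genes of the retinoid response stood near their level with ATRA alone. CCL2 was at 207, 232 and 221 RPKM with ATRA and at 13, 13 and 15 RPKM with palbociclib, and the combination lay 0.16 above ATRA on the log2 scale (standard error 0.09, adjusted p = 1). CEBPE was at 116, 116 and 118 RPKM with ATRA and 48, 39 and 47 RPKM with palbociclib. Its 3 combination libraries lay above all of these, at 0.18 over ATRA (standard error 0.08, adjusted p = 1, or 0.376 with the block). MYC was at 72, 73 and 103 RPKM with ATRA and 171, 174 and 203 RPKM with palbociclib, and differed from ATRA by -0.002 (standard error 0.18, adjusted p = 1) and from palbociclib by -1.16 (adjusted p = 0.00142, or 2.88e-05 with the block). The retinoid response list had a median of 1.76 with ATRA and 0.19 with palbociclib, each minus untreated, and the ribosome biogenesis list medians of -0.35 and -0.08. For the retinoid list the expression limit raises the ATRA median, as some members reached it only in libraries with ATRA.

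The genes of S phase entry stood nearer to palbociclib alone. E2F1 was at 9, 8 and 8 RPKM with ATRA and at 5, 5 and 4 RPKM with palbociclib, and the combination was -1.17 from ATRA (standard error 0.13, adjusted p = 0.00695, or 0.00299 with the block) and -0.34 from palbociclib (standard error 0.13, adjusted p = 0.128). CCNE1 was at 9, 8 and 8 RPKM with ATRA and 5 in each palbociclib library, -0.93 (adjusted p = 0.00679) and -0.21 (adjusted p = 0.231) from the combination. MCM4 was at 52, 56 and 54 RPKM with ATRA and 40, 41 and 36 RPKM with palbociclib. None of these differences passed 0.001. The MCM and licensing list had a median of -0.30 with ATRA and -0.69 with palbociclib, each minus untreated, beside -0.64 with both, and the combination overlapped palbociclib alone in MCM2, MCM3, MCM4, MCM6 and MCM7. WDR76, at 4, 5 and 3 RPKM with palbociclib, was at 5, 6 and 4 RPKM with the combination.

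In a small group of genes the combination lay beyond both agents. All 3 combination libraries were below all 6 libraries of the single agents in 45 of the 335 genes that fell (13.4%) and above them in 17 of the 294 that rose (5.78%). Over all genes tested, the shares were 0.729% below and 0.396% above. The called genes were chosen on the same combination libraries, which raises their shares by construction, so nothing is read from the difference. CDC25A was at 22, 21 and 22 RPKM with ATRA, 18, 19 and 18 RPKM with palbociclib and 15, 15 and 13 RPKM with both, -0.60 from ATRA (adjusted p = 0.00679) and -0.36 from palbociclib (adjusted p = 0.0036). MCMBP was at 22, 20 and 19, at 21, 21 and 20, and at 17, 16 and 14 RPKM, -0.38 from ATRA (adjusted p = 0.188) and -0.40 from palbociclib (adjusted p = 0.007, or 0.000775 with the block). CBX2 was at 3 RPKM in each library with either agent and at 2 in each with both, a difference of 1 rounding step. TRAF3, DUSP2 and MAP3K21 were also below both and lay the same 1 RPKM under ATRA alone, and MXD4, above both, lay 1 RPKM over palbociclib alone. SKP2 was below both, at 25, 28 and 26 RPKM against 29 to 32 RPKM, and TXNIP, an inhibitor of glucose uptake, was above both, at 57, 64 and 63 RPKM with ATRA, 52, 55 and 59 RPKM with palbociclib and 67, 73 and 79 RPKM with the combination. It differed from ATRA by 0.25 (adjusted p = 0.634) and from palbociclib by 0.40 (adjusted p = 0.00639, or 0.000322 with the block). TXNIP rose from 45, 44 and 49 RPKM in untreated cells (log2 fold change 0.66, adjusted p = 0.000118), with the call lost without untreated replicates 1 or 2 (up to 0.00107). These genes were chosen after their values were seen.

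**Figure D4:**
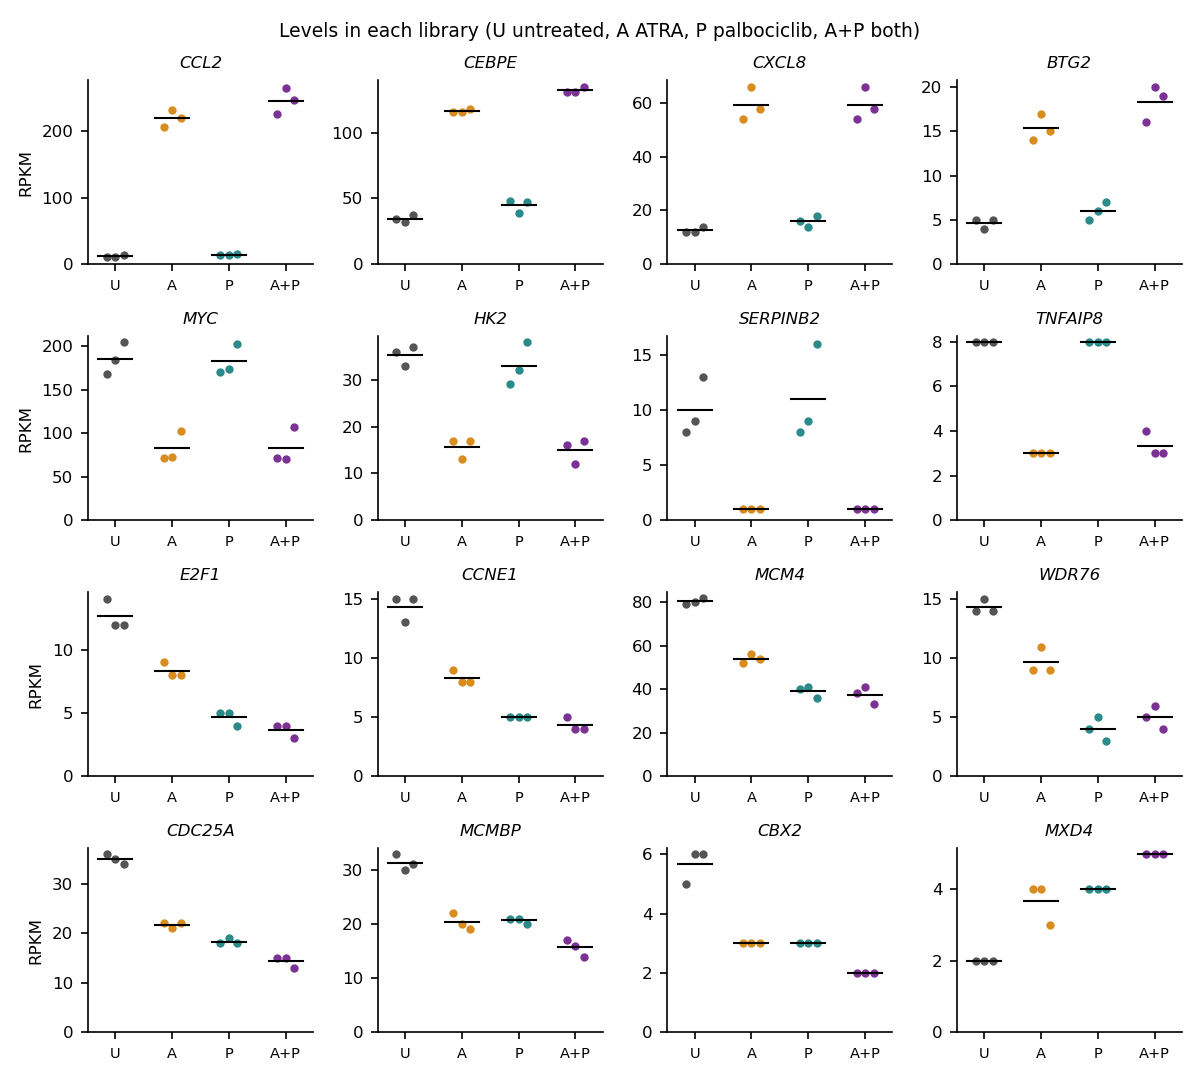
RPKM in each of the 12 libraries for 16 genes, with points for libraries and bars for group means, in untreated cells (U), with ATRA (A), palbociclib (P) and both (A+P). Each panel starts at 0 and has its own scale. The 8 genes from CCL2 to TNFAIP8 stand nearer in A+P to A than to P, E2F1, CCNE1, MCM4 and WDR76 are lowest in P and A+P, and CDC25A, MCMBP, CBX2 and MXD4 are most changed in A+P.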

How the data were processed

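RNA-seq libraries of HL-60 cells were analysed from a single deposited table. The authors aligned reads by HISAT2 (hg38), took gene counts from htseq-count, computed RPKM and rounded it to whole numbers, so the deposited values were treated as a score on the RPKM scale and not as counts. Read totals are not given there, and the strand setting of the kit is not given in the sources used here. The authors tested with voom in Degust. Here limma 3.58.1 (R 4.3.3) modelled log2(RPKM + 0.1) in the 12 libraries jointly, with a mean trend, for genes at 5 or more in at least 3 libraries, and genes at an adjusted p under 0.001 were called.

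Named genes were the 12 largest called increases and 12 largest called decreases, without overlap of libraries and with a mean of 5 RPKM or more in the higher group, called members of the gene lists, the drug targets and genes the study treats. Other list members are named as examples. The members and lists were chosen with earlier results of these data known. Fits were also run on simulated data with independent noise in each library. Such data lack the shared deviations of same-numbered libraries, so no result here rests on them. Alternatives varied the threshold, filter, pseudocount, scaling, libraries and block.

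Replicate numbers are in the labels. Correlations of same-numbered deviations were 0.908, 0.809 and 0.782 between ATRA and the combination and 0.702, 0.514 and 0.438 between palbociclib and the combination, and the block was used beside those comparisons. Promoters were from RefSeq (GRCh38.p14). Some members of the lists are counted but not reported here by name.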

Additional observations from a re-analysis of the deposited data

How the results depend on the processing

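Against untreated cells, 996 genes were higher and 1381 lower at an adjusted p under 0.05, 49 and 22 with the spread taken from the 6 libraries compared, and 222 were lower with a log2 fold change beyond 0.58. Leaving out 1 library gave 175 to 246 higher and 162 to 280 lower. A replicate block gave 514 higher and 690 lower genes, but same-numbered untreated and combination libraries deviated together only weakly (correlations 0.164, 0.305 and 0.0453), so the numbers were not taken to pair them. Same-numbered ATRA and combination libraries deviated together more (0.908, 0.809 and 0.782). It is not stated whether the untreated libraries were prepared apart from the treated ones. If they were, that difference and the treatment cannot be told apart here. Against ATRA, 9 genes were lower at an adjusted p under 0.05, and 11 were higher and 9 lower with a filter of 1 RPKM and likewise with none. With the replicate block, 1 was higher and 50 lower at 0.05. The other settings, each library left out included, gave 0 and 0 at 0.001. Against palbociclib, 458 and 519 were called at 0.05, 139 lower with a filter of 1 and 135 with none, 20 and 1 from the 6 libraries compared, and 280 and 201 with the replicate block. Leaving out 1 library gave 87 to 141 higher and 29 to 58 lower. The cause of these changes was not tested.

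Of 145 called genes in the lists or named, 114 lost their call with the 6 libraries compared, 29 with a filter of 1 RPKM, 33 with none and 22 to 58 with 1 library left out. Of the 24 largest changes, 12, 5, 5 and 3 to 6 did. None of the 145 reversed or lost its call with the block, while some genes that had not passed did so with it, among them CDK4 (adjusted p = 0.000448), RB1 (0.00017) and RXRA (4.56e-05). Values rounded to whole RPKM limit genes of low level: 28 called genes had 3 identical values in both groups, which leaves their spread below the rounding step, and the read depth of each library is not given in the table.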
